A study of Mus musculus with 16 samples.

Results

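The comparison examined here set APPtg/CETPtg against CETPtg brains under evacetrapib. Its members were the 8 evacetrapib-treated mice among the 16 of the series, chosen by their genotype and treatment labels, with 4 mice in each genotype (replicates A to D, CETPtg; E to H, APPtg/CETPtg). All 8 were females on a C57BL/6J background, carried the CETP transgene as heterozygotes, ate a diet with 1% (w/w) cholesterol from 11 weeks of age, and received 30 mg/kg evacetrapib for 11 weeks by intraperitoneal injection. The CETP transgene holds the human gene under its own promoter. The APPtg/CETPtg mice carried in addition a human APP transgene with the Swedish and Indiana mutations, which the Thy1 promoter drives in neurons. Poly(A)-selected RNA of bulk brain tissue was sequenced and counted per gene. The comparison asks how the brain transcriptome differed with the APP transgene while CETP was inhibited.

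APP, the amyloid precursor protein, is cleaved by β- and γ-secretase into amyloid-β, which can deposit in plaques. The study saw none in its mice at the age studied. Around plaques, microglia and astrocytes are known to change their gene expression, and microglia take up a programme with Trem2, Apoe and Clec7a. CETP, the cholesteryl ester transfer protein, exchanges cholesteryl esters and triglycerides between plasma lipoproteins. Mice have no CETP of their own, so that both genotypes here are models of a lipoprotein metabolism with CETP, and neither is a wild-type brain.

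Total counts ranged from 33684250 to 46800787 in CETPtg mice and from 21391335 to 25854334 in APPtg/CETPtg mice. The totals did not overlap between genotypes (exact permutation test, two-sided, p = 0.0286, the smallest that 70 labelings allow). The genotypes also sat in different columns of the index plate (11 and 12 against 8 and 9), so that among these 8 mice genotype, depth and plate column cannot be told apart. Mouse E held pituitary RNA: the hormone genes Gh, Prl and Pomc summed to 22058 counts there, against 33 to 65 in the other 7 mice. Mouse B had the highest level of the 19 choroid plexus genes tested (455 summed CPM; 265 to 348 in the other 7 mice). Main counts are given without these mice as well. Nothing in the sources used here ties the mice to litters or cages, so p-values measure the spread between these mice.

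Thy1 was read first, since the APP transgene uses its promoter, and endogenous sequence in a transgene can add to the count. Its level (CPM, counts scaled to library size after TMM normalisation) was 807, 783, 753 and 684 in mice A to D and 1000.1, 1818, 865 and 1039.5 in mice E to H. The 2 genotypes did not overlap, and mouse F stood far above the other APPtg/CETPtg mice. Thy1 was 1.56-fold higher (log2 fold change 0.64, SE 0.22), which did not pass the test (edgeR's quasi-likelihood test, Benjamini-Hochberg adjusted p = 0.108). Without mouse F the value was 0.35 (adjusted p = 0.361 in edgeR). Under vehicle, in other mice, the same contrast gave 0.91 (SE 0.22, adjusted p = 0.0135 in edgeR). The mouse App gene, on chromosome 16, did not pass it either, at 2162 ± 162 CPM in CETPtg and 2121 ± 188 CPM in APPtg/CETPtg (SD, n = 4 each; log2 fold change -0.03, adjusted p = 0.881 in edgeR). How far reads of the human transgene were counted as App or Thy1 is not given in the sources used here.

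**Figure D1:**
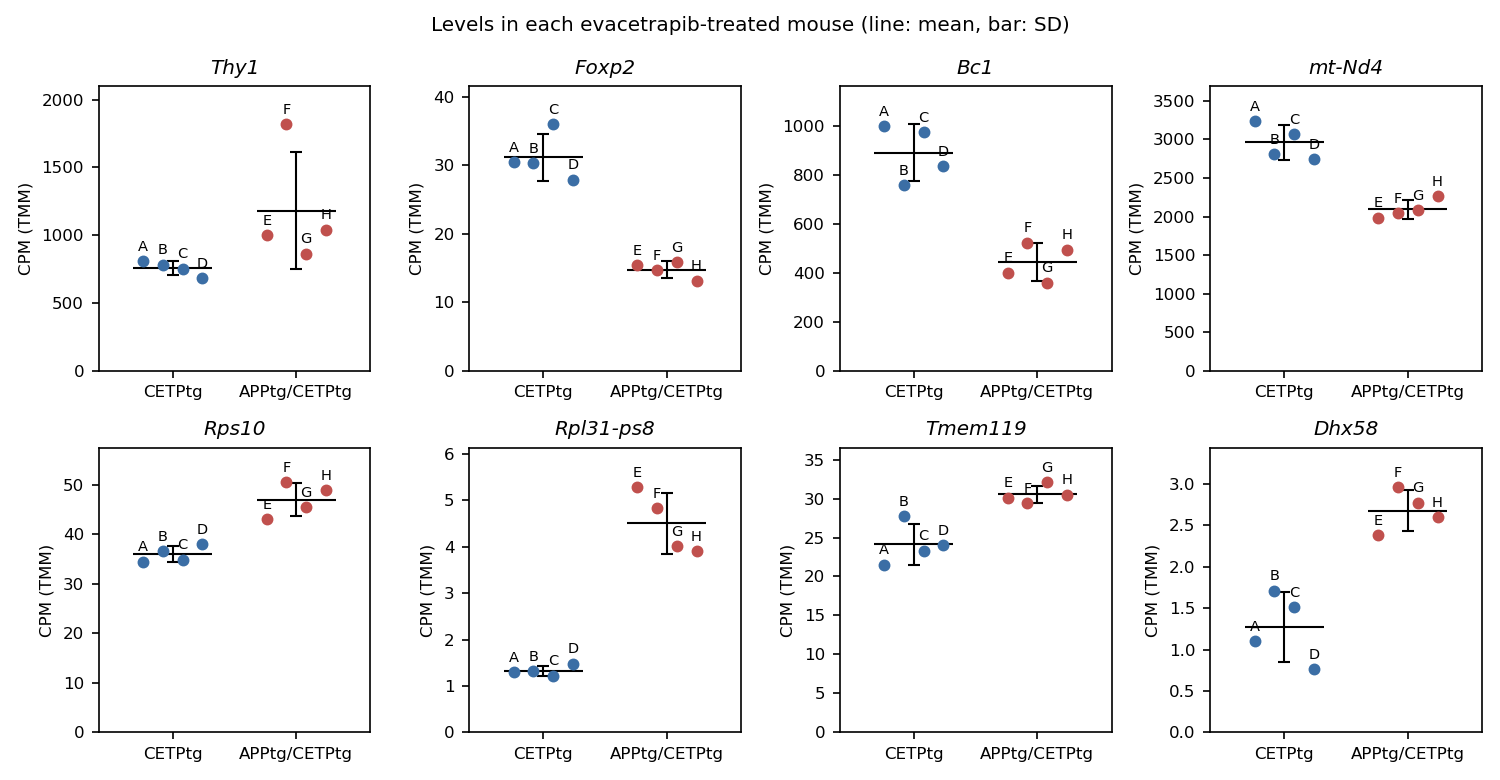
Level of 8 genes (CPM after TMM scaling, y axis from 0) in each of the 8 evacetrapib-treated mice, by genotype (x axis); each point is 1 mouse with its letter, the line the mean and the bar the SD. Foxp2, Bc1 and mt-Nd4 are lower in all 4 APPtg/CETPtg mice, Rps10, Rpl31-ps8, Tmem119 and Dhx58 are higher in all 4, and Thy1 is set apart by mouse F at 1818 CPM.

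Of 18609 genes tested, 556 (2.99%) were differentially expressed between the genotypes under evacetrapib (DEGs: adjusted p of at most 0.05 in edgeR's quasi-likelihood test; the minimum fold change removed none). Among them 237 (1.27%) were higher and 319 (1.71%) lower in APPtg/CETPtg mice. Most differences were small: the median fold was 1.21 among the higher DEGs and 1.21 down among the lower ones. A change of at least 2-fold was reached by 29 higher and 10 lower DEGs. The 4 values of each genotype did not overlap in 521 DEGs, against 10.8% of all genes tested, which follows from how DEGs are called. An unadjusted p under 0.05 in edgeR was reached by 3585 of the 18609 genes. Counts of list members at that level, given below, are to be read against this share, and counts of DEGs in a list against the 2.99% of all genes.

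The 10 DEGs with the smallest p were Foxp2, Rpl31-ps8, Gstp-ps, Rps16-ps2, Gm2000, Bc1, mt-Nd4, Gm8430, Gm5561 and Rpl35a-ps2. Of these 10, Foxp2, Bc1 and mt-Nd4 were lower in APPtg/CETPtg mice and the other 7 were higher. All but Gm2000 of the 7 were processed pseudogenes, mostly of ribosomal protein genes. All 10 stayed DEGs when any of the 8 mice was left out.

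The number of DEGs turned on individual mice. Without CETPtg mouse A it fell to 91, without C to 223, without F to 206, without G to 300, and without E or H to 335 each. Without mouse B it rose to 858, and without D it was 438. Of the 556 DEGs, 86 were called in each of the 8 fits that left out a mouse.

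**Figure D2:**
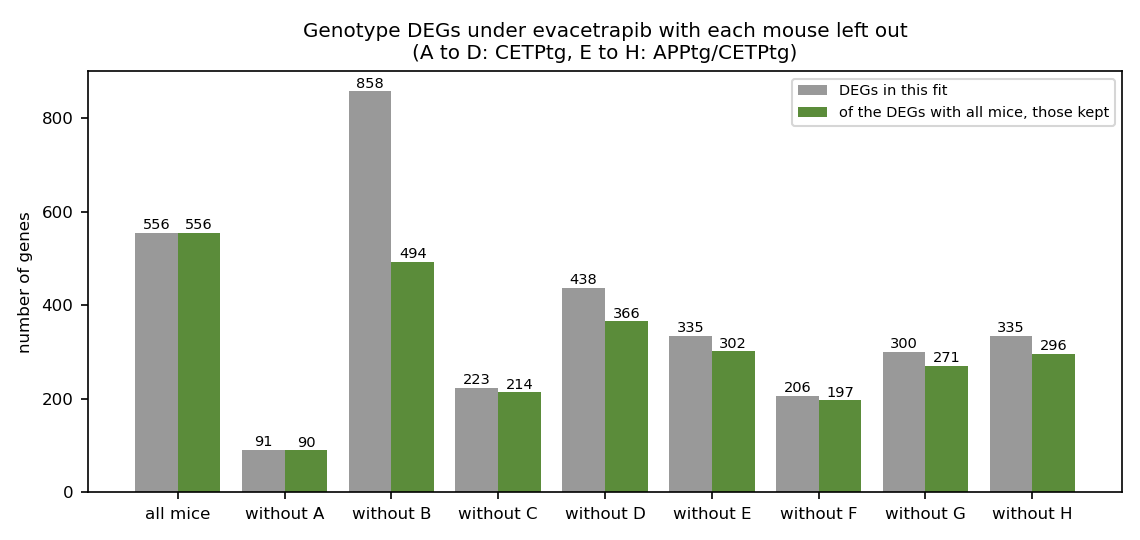
Number of genotype DEGs under evacetrapib (y axis) with all mice and with each mouse left out (x axis; A to D CETPtg, E to H APPtg/CETPtg). Grey bars count the DEGs of that fit and green bars those of the 556 DEGs that it keeps: 90 without mouse A and 494 without mouse B.

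Vehicle-treated mice gave the same contrast in 8 other brains, although the plate columns there also went with genotype and the fit shares its estimate of the spread. Total counts were 28626139 to 37709734 in CETPtg and 21866883 to 55453789 in APPtg/CETPtg mice there, and overlapped only through APPtg/CETPtg mouse S8 (55453789). Mice S5, S6 and S7 held 21866883 to 27398792, below each CETPtg vehicle mouse, so that depth went largely with genotype there too. Under vehicle 1934 of 18609 genes (10.4%) were DEGs, 1112 higher and 822 lower. Of the 556 DEGs under evacetrapib, 340 were DEGs of the same sign under vehicle, which is 61.2% of the evacetrapib DEGs and 17.6% of the vehicle DEGs. None was called with opposite signs in both. The sign was shared by 545 of the 556 (98.0%), against 66.2% of all genes tested. The difference between the genotype effects under evacetrapib and under vehicle was a DEG for 0 genes (0.0%) in edgeR, with 1271 genes at an unadjusted p under 0.05, with 2 called by DESeq2 and 0 by limma-voom. The smallest adjusted p in edgeR was 0.127, for Arl4d. With no filter on low counts edgeR called 29.

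**Figure D3:**
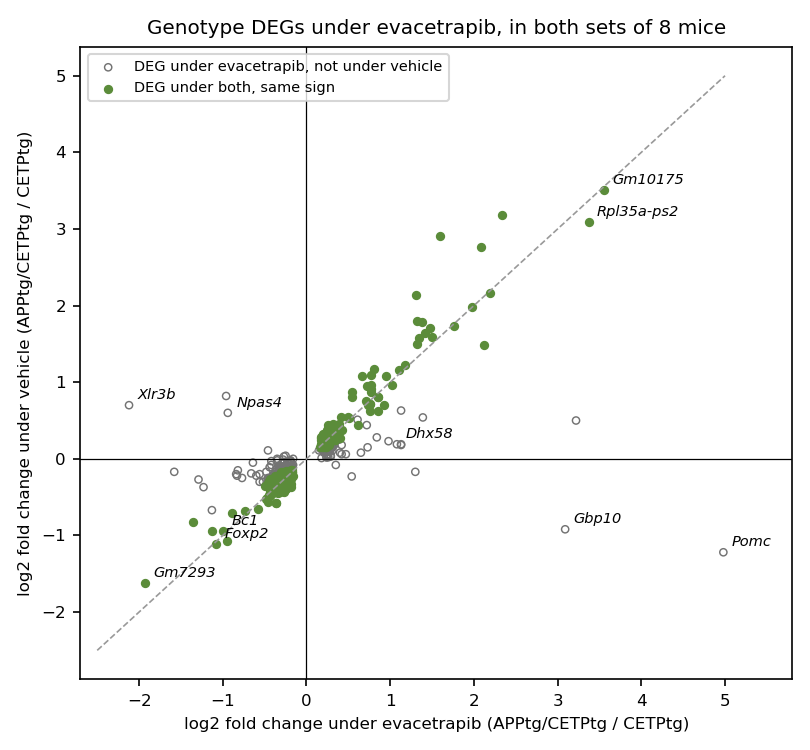
Log2 fold change (APPtg/CETPtg over CETPtg) of the 556 DEGs under evacetrapib (x axis) and of the same genes under vehicle (y axis), 8 mice each; filled points are the 340 genes called with the same sign in both, and the dashed line marks equal values. Foxp2, Bc1 and Gm10175 lie near the line, whereas Pomc, Gbp10, Xlr3b and Npas4 lie off it, on the other side of 0 under vehicle.

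Foxp2, a forkhead transcription factor of striatal, thalamic and deep cortical neurons known for its role in vocal learning, had the smallest p of all genes. Its levels were 30.5, 30.3, 36.0 and 27.9 CPM in mice A to D and 15.4, 14.7, 15.9 and 13.2 CPM in mice E to H. The highest APPtg/CETPtg value lay well below the lowest CETPtg value. Foxp2 was thus 2.11-fold lower (log2 fold change -1.08, SE 0.09, adjusted p = 8.52e-06 in edgeR), and under vehicle it fell by 1.11 on the log2 scale. The gene lies on chromosome 6 (mm10, 14901349 to 15441977, plus strand). None of the 8 other genes tested within 2 Mb either way was a DEG in edgeR; this window was chosen after its values were seen. After the counts of each mouse were corrected for GC content and length, the value for Foxp2 was -0.95 (adjusted p = 8.52e-05 in edgeR).

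Its relative Foxp1, a marker of striatal projection neurons, fell less (141, 124, 132 and 115 against 98.6, 105, 87.9 and 107 CPM; log2 fold change -0.36, adjusted p = 0.0189 in edgeR), and the call was lost without mouse A (adjusted p = 0.0832), C or G, and with GC content and length corrected (adjusted p = 0.116). Foxp4 did not pass the test (0.08, adjusted p = 0.585 in edgeR). Foxp2 and Foxp1 were the DEGs of the 16 striatal genes listed, and the others, dopamine receptors Drd1 and Drd2 among them, did not pass. DEGs made up 12.5% of the list, against 2.99% of all genes. The list's median log2 fold change was -0.16, against 0.01 over all genes.

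Relatives of some other transcription factors called were read after their values were seen, so that they stand for no group of factors. The nuclear factor I genes, which direct gliogenesis and neuronal maturation, all fell: Nfib by 0.46, Nfia by 0.45, Nfix by 0.33 and Nfic by 0.23 on the log2 scale (adjusted p = 0.00395, 0.00331, 0.0116 and 0.0451 in edgeR). Nfia measured 28.5 to 32.3 CPM in CETPtg mice and 20.8 to 24.8 CPM in APPtg/CETPtg mice. Of the POU3 factors of cortical neurons, Pou3f3 fell by 0.31 and Pou3f2 by 0.38 (adjusted p = 0.00449 and 0.00736 in edgeR), whereas Pou3f1 (-0.22) and Pou3f4 (-0.05) did not pass. Nor did Esrra (0.17), Esrrb (-0.10), Foxo1 (-0.19), Foxo3 (-0.15), Tcf4 (-0.17), Tshz2 (-0.09) or Zbtb20 (-0.18). Foxn3 (-0.48) and the orphan nuclear receptor Esrrg (-0.40) also fell (adjusted p = 0.00139 each in edgeR). With the GC and length trend removed, Nfia, Nfib, Nfix, Pou3f3, Pou3f2, Foxn3 and Esrrg remained DEGs, and Nfic (adjusted p = 0.0564), which was called in 2 of the 8 fits that left out a mouse, did not.

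Ribosomal proteins form the cytosolic ribosome, and 20 of the 83 tested in the list of protein-coding members were higher in APPtg/CETPtg mice, with 0 lower. Their median log2 fold change was 0.15 (0.01 over all genes), and 79 of 83 lay above 0. Rps10, of the small subunit, measured 34.5, 36.6, 34.9 and 38.0 CPM in mice A to D and 43.1, 50.6, 45.5 and 49.0 CPM in mice E to H. It was 1.31-fold higher (log2 fold change 0.39, SE 0.06, adjusted p = 0.00251 in edgeR). The other 19 DEGs of the list, among them Rpl27, Rps29 and Rps3, rose by 0.18 to 0.31 on the log2 scale. The summed level of the list was 11783 to 12868 CPM in CETPtg mice and 13286 to 14223 CPM in APPtg/CETPtg mice, with no overlap.

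The number of ribosomal proteins called ranged from 4 without mouse A to 26 without mouse B. It was 8 of 83 with the GC and length trend removed, all higher. Under vehicle 65 of the same 83 were higher and 0 lower.

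Processed pseudogenes, copies that arose by reverse transcription of mRNAs, made up many of the larger rises. Of the 46 called, the transcribed ones included, 41 were higher and 5 lower. Each of the 46 aligned over at least 80% of its length to a protein-coding transcript, with a median identity of 99.5% (95.2 to 100.0%), and 24 of the 41 had a ribosomal protein gene as their closest relative. In each of the 41 the log2 fold change exceeded that of the relative; the pseudogenes had been selected as DEGs and the relatives had not. A read of 150 bases often cannot tell such copies apart, so that their counts are uncertain. The stretches below compare 2 of them with their relatives, from coding sequence of GENCODE M21 on mm10, 5′ to 3′, where the pair differs most. Capitals mark the bases that differ, and in the first pair none does.
Rpl31-ps8: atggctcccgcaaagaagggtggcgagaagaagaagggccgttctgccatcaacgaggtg
Rpl31: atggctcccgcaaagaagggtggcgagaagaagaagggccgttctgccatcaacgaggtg
Gm5561: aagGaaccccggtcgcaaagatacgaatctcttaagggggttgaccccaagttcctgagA
Rpl29: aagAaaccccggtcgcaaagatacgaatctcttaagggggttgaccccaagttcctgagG

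Rpl31-ps8 (chromosome 15, 90764279 to 90764656, minus strand) measured 1.3, 1.32, 1.22 and 1.48 CPM in mice A to D and 5.28, 4.83, 4.01 and 3.9 CPM in mice E to H. It was 3.4-fold higher with wide separation of the genotypes (log2 fold change 1.76, SE 0.17, adjusted p = 2.41e-05 in edgeR). Its relative Rpl31 stood at 171 ± 9.49 CPM in CETPtg and 194 ± 11.0 CPM in APPtg/CETPtg mice (SD, n = 4 each), 0.18 higher on the log2 scale, which did not pass (adjusted p = 0.0651 in edgeR). Gm5561 rose by 2.09 from 0.255 ± 0.0502 to 1.1 ± 0.0841 CPM (SD, n = 4 each; adjusted p = 0.00115 in edgeR), while Rpl29 (0.15) did not pass.

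Among DEGs without overlap, the pseudogenes Gm10175, a relative of Atp5g2, and Rpl35a-ps2 had the largest rises, 3.55 and 3.37 on the log2 scale. They held 1 to 4 and 1 to 6 counts in the CETPtg mice, so that they were tested only because of their counts in APPtg/CETPtg mice and the size of these folds is uncertain. Gbp10, an interferon-inducible GTPase, came next (3.09), then Rpl10-ps3, annotated as protein-coding (2.33), and the pseudogene Gm8430, a relative of Rps27a (2.19). Gbp10 and Rpl10-ps3 each held 2 to 5 counts in the CETPtg mice. Without mouse E neither had the counts to be tested, so that the size of their folds is uncertain too. Gm26384, annotated as a miRNA gene, rose by 2.12. Gm10175, Rpl35a-ps2, Rpl10-ps3 and Gm8430 measured under 1 CPM in the CETPtg mice. Gstp-ps, a relative of the glutathione S-transferase genes, rose by 1.98 from 0.341 to 0.45 CPM in CETPtg to 1.26 to 2.04 CPM in APPtg/CETPtg mice (adjusted p = 6.32e-05 in edgeR).

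Copies of Gapdh, the glycolytic enzyme, moved in both directions. The gene itself was at 1801 ± 156 CPM in CETPtg and 1773 ± 81.4 CPM in APPtg/CETPtg mice (SD, n = 4 each; log2 fold change -0.02, adjusted p = 0.889 in edgeR). Gm2451 rose by 1.18 and Gapdh-ps15 by 1.5, whereas Gm5138 fell by 0.95 and Gm7293 by 1.93 on the log2 scale (adjusted p = 0.00519, 0.00979, 0.016 and 0.00307 in edgeR). Gapdh-ps15 is annotated on chromosome Y, and all 8 mice were females. Of the 46 pseudogenes, 39 were DEGs of the same sign under vehicle.

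Respiratory chain genes split by genome. Complexes I to IV and the ATP synthase draw most subunits from the nucleus and 13 from mitochondrial DNA. Of 91 nuclear genes tested, which include some assembly factors named Ndufaf, 12 were higher in APPtg/CETPtg mice and 0 lower (median log2 fold change 0.10). Cox7c, a complex IV subunit, measured 63.9 to 73.0 CPM in CETPtg and 77.7 to 91.8 CPM in APPtg/CETPtg mice (log2 fold change 0.32, SE 0.06, adjusted p = 0.0052 in edgeR). Uqcr11, of complex III, rose by 0.32, Ndufa3, of complex I, by 0.29, and Atp5j2, of the ATP synthase, by 0.35 (adjusted p = 0.0052, 0.00519 and 0.0133 in edgeR). The number called ranged from 3 without mouse A to 13 without mouse B and was 6 with the GC and length trend removed.

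Of the 13 protein-coding mitochondrial genes, 9 were lower in APPtg/CETPtg mice and mt-Nd4l alone was higher; the median over the 13 was -0.38 on the log2 scale. The complex I subunit mt-Nd4 measured 3233, 2807, 3064 and 2746 CPM in mice A to D and 1983, 2046, 2079 and 2266 CPM in mice E to H. It was 1.41-fold lower (log2 fold change -0.50, SE 0.07, adjusted p = 0.00115 in edgeR), with no overlap. The others called fell by 0.36 to 0.52 on the log2 scale, with mt-Atp8 at -1.13. The mitochondrial share of all counts was 3.33 to 4.08% in CETPtg mice and 2.88 to 3.14% in APPtg/CETPtg mice.

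The exception, mt-Nd4l, measured 4.91 to 6.71 CPM in CETPtg and 7.89 to 11.3 CPM in APPtg/CETPtg mice (log2 fold change 0.77, SE 0.13, adjusted p = 0.00519 in edgeR). It overlaps mt-Nd4 by 7 of its 297 bases, and mt-Atp8 overlaps mt-Atp6 by 43 of its 204 bases, so that their counts depend in part on how reads over the overlap were assigned. The protein-coding genes from mt-Co2 to mt-Nd4l (bases 7013 to 10173) averaged 2.37 to 45.9 CPM in CETPtg mice. The neighbours mt-Co1 and mt-Nd4 averaged 12928 and 2962 CPM. Why the genes between them were so low was not tested, so that their folds are uncertain. The remaining mt-Co3 (-0.22), mt-Nd6 (-0.28) and mt-Nd3 (0.35) did not pass. Between 7 (without mouse A) and 10 mitochondrial genes were called when a mouse was left out. With the GC and length trend removed 6 were lower and 1 higher. The calls of mt-Co1, mt-Atp6 and mt-Nd5 were then lost (adjusted p = 0.0534, 0.0532 and 0.0558 in edgeR). Under vehicle 5 of the 13 were lower and 2 higher.

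Bc1, a short neuronal RNA polymerase III transcript that is carried into dendrites and represses translation there, fell as much as Foxp2. Its levels were 999.7, 758, 976 and 836 CPM in mice A to D and 401, 524, 359.9 and 496 CPM in mice E to H. The genotypes were well apart (log2 fold change -1.0, SE 0.12, adjusted p = 0.000338 in edgeR; -0.94 under vehicle). Bc1 lies on chromosome 7 (mm10, 144914470 to 144914637, plus strand). The annotated RNA of 168 bases is shown because it holds an internal A-rich part and the libraries were poly(A)-selected. Capitals mark runs of 4 or more A.
Bc1: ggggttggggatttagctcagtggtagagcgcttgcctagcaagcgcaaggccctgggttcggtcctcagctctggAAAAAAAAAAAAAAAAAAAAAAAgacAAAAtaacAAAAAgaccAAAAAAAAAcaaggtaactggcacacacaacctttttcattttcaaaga

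Gene length went with the direction of the differences. In the shortest quintile of genes by exonic length (up to 1882 bases), 113 were higher and 26 lower in APPtg/CETPtg mice. In the longest quintile (6949 bases and more), 6 were higher and 190 lower. The median log2 fold change went from 0.08 in the shortest to -0.05 in the longest quintile. GC content ran the same way, with 8 higher and 167 lower in the quintile with least GC and 92 higher and 9 lower in the quintile with most. Under vehicle the shortest quintile held 444 higher and 26 lower, and the longest 22 higher and 577 lower.

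The trend with length differed between mice and was close to 0 in B and G. Across genes, which are not independent replicates, Spearman's rho of a gene's deviation with length was 0.03 to 0.20 in the 4 CETPtg mice and -0.17 to -0.04 in the 4 APPtg/CETPtg mice. With GC content it was -0.42 to -0.21 in mice A, C and D but 0.26 in mouse B, which resembled the APPtg/CETPtg mice F, G and H (0.21 to 0.26), with E at -0.03. When each mouse was corrected for GC content and length, 182 DEGs were called, 86 higher and 96 lower, of which 151 were among the 556. With the counts of all mice drawn down to the smallest total, 490 DEGs were called, 172 higher and 318 lower. The part of plate column and RNA quality in these trends was not tested.

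**Figure D4:**
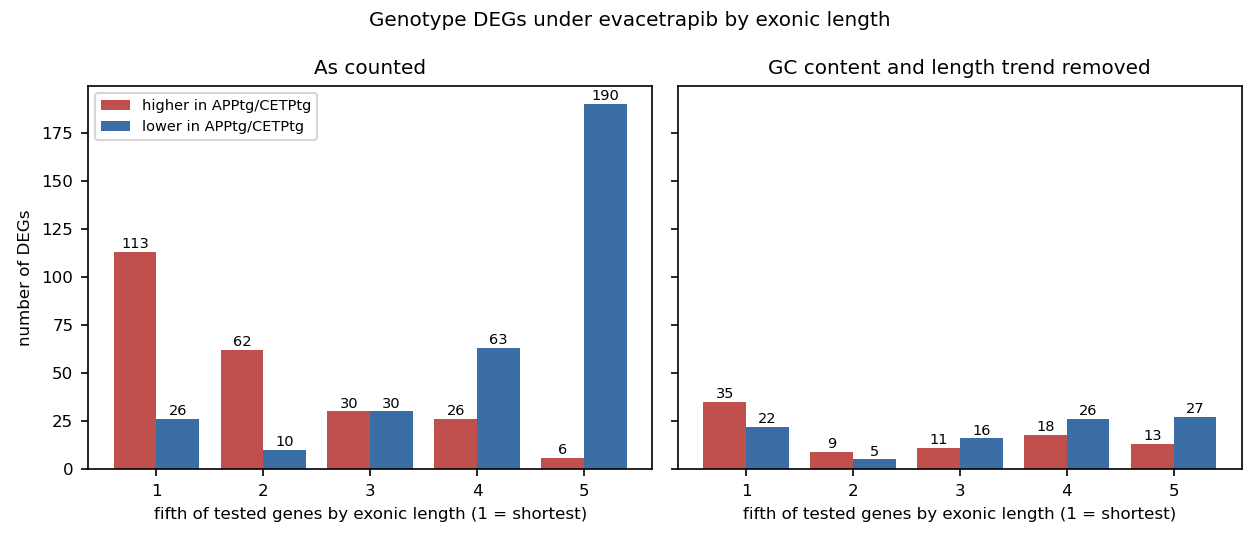
Number of genotype DEGs under evacetrapib (y axis) in each quintile of the tested genes by exonic length (x axis, 1 the shortest), higher (red) and lower (blue) in APPtg/CETPtg mice. Left, as counted, where 113 genes of the shortest quintile are higher and 190 of the longest are lower; right, with each mouse's trend with GC content and length removed, where these counts are 35 and 27.

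Homeostatic microglial genes lay mostly above 0, with few DEGs. In bulk tissue, a change in the number of cells of a type and in their RNA per cell cannot be told apart. Of 17 homeostatic microglial genes, Tmem119 was a DEG and 16 lay above 0, with a median log2 fold change of 0.16 (-0.03 under vehicle). Tmem119, a membrane protein specific to microglia within the brain, measured 21.5, 27.7, 23.3 and 24 CPM in mice A to D and 30.1, 29.4, 32.1 and 30.5 CPM in mice E to H (log2 fold change 0.34, SE 0.07, adjusted p = 0.0171 in edgeR). Tmem119 was not called without mouse A, C or G. It was a DEG under vehicle as well (0.25, adjusted p = 0.0331 in edgeR), and the difference did not pass (adjusted p = 0.87 in edgeR). Of the 17 genes, 3 were higher and 0 lower under vehicle. The fractalkine receptor Cx3cr1 (0.16) and the receptor tyrosine kinase Csf1r (0.18) did not pass. The summed level of the list was 487 to 525 CPM in CETPtg and 542 to 597 CPM in APPtg/CETPtg mice, the highest in mouse G.

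Of 18 complement genes, C1qb (37.7 to 48.2 against 47.8 to 57.4 CPM; log2 fold change 0.39, adjusted p = 0.027 in edgeR) and C1qc (0.24, adjusted p = 0.0464) were higher. The 2 genes, 11.1% of the list against 2.99% of all genes, encode chains of C1q, which microglia make. Neither was a DEG without mouse A, C, D, F or G or with the GC and length trend removed, and under vehicle C1qc was called and C1qb was not.

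None of the 27 tested genes that microglia raise around plaques was a DEG (median log2 fold change 0.13, 16 above 0, summed levels overlapping). At an unadjusted p under 0.05 in edgeR there were 7, against 3585 of all 18609 genes. Trem2, the lipid receptor that this programme needs, measured 12.3 to 16.3 CPM in CETPtg and 14.3 to 17.0 CPM in APPtg/CETPtg mice (0.20, adjusted p = 0.326 in edgeR). Apoe, the main apolipoprotein of the brain, was at 1386 ± 104 and 1512 ± 94.0 CPM (SD, n = 4 each; 0.13, adjusted p = 0.292 in edgeR). Clec7a was near its limit of detection in both genotypes, at 0.0797 to 0.482 CPM. The smallest p values of the list belonged to Lyz2 (0.42, adjusted p = 0.0953) and Ank (-0.11, adjusted p = 0.126 in edgeR).

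Interferon-stimulated genes had the highest median of the lists with more than 20 genes, 0.57 on the log2 scale, with all 27 above 0, yet Dhx58 alone passed the test. Dhx58, which encodes the RNA sensor LGP2, measured 1.1, 1.71, 1.51 and 0.766 CPM in mice A to D and 2.38, 2.96, 2.77 and 2.6 CPM in mice E to H (log2 fold change 1.08, SE 0.20, adjusted p = 0.00979 in edgeR). The other genes did not separate the genotypes. Ifit3 measured 8.12, 17.7, 8.82 and 7.75 CPM in mice A to D and 16.6, 24.7, 23.4 and 9.19 CPM in mice E to H (0.81, adjusted p = 0.136 in edgeR). Mouse B of the CETPtg group was thus as high as E, and mouse H of the APPtg/CETPtg group as low as A, C and D.

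The summed level of the list showed this split, at 349 CPM in B and 234 to 248 CPM in A, C and D, and at 263 CPM in H and 344 to 474 CPM in E, F and G. The number called was 10 without mouse B, 4 without mouse H and 1 without any of the other 6. Under vehicle 0 of the 27 were DEGs, with a median of 0.08. The difference between the genotype effects did not pass for Dhx58 (adjusted p = 0.703 in edgeR). Gbp10, which is not on the list, was by far highest in mouse G, at 1.84 CPM. It held 0.186 to 0.487 CPM in E, F and H and 0.0441 to 0.15 CPM in the CETPtg mice. It was called in 2 of the 8 fits that left out a mouse.

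**Figure D5:**
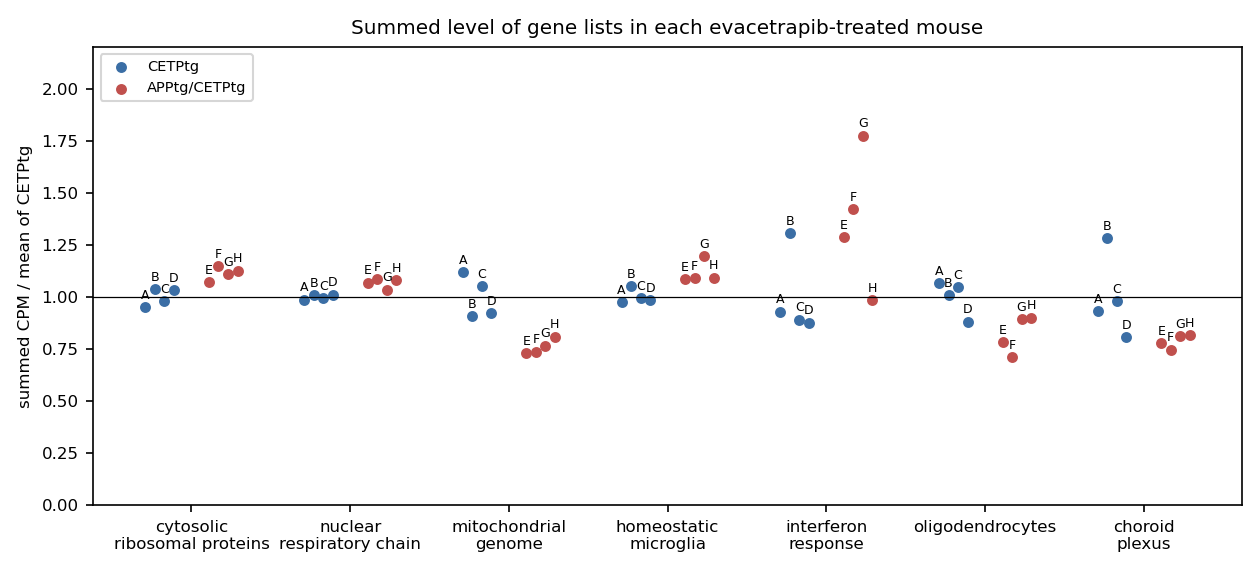
Summed CPM of 7 gene lists in each of the 8 evacetrapib-treated mice, divided by the mean of the 4 CETPtg mice (y axis from 0), blue CETPtg and red APPtg/CETPtg, each point 1 mouse with its letter. The ribosomal, respiratory, mitochondrial and microglial lists separate the genotypes, whereas in the interferon list mouse B lies with E, F and G, and mouse H with A, C and D.

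Oligodendrocyte genes tended to be lower. All 16 myelin and oligodendrocyte genes lay below 0 (median log2 fold change -0.29), and Ugt8a, Tspan2, Ermn and Cldn11 were DEGs. Ugt8a, which makes the myelin lipid galactosylceramide, measured 38.9, 33.1, 38.2 and 32.7 CPM in mice A to D and 27.8, 23.5, 29.0 and 28.9 CPM in mice E to H (log2 fold change -0.39, SE 0.08, adjusted p = 0.0149 in edgeR). Myelin basic protein, Mbp, was at 2392 ± 170 and 1936 ± 239 CPM (SD, n = 4 each) and did not pass (-0.31, adjusted p = 0.0614 in edgeR). The count of 4 was 0 without mouse A or C, 6 without D, and 1 without E or F. With the GC and length trend removed Cldn11 alone was called, and under vehicle Ugt8a alone. Of 11 precursor genes 0 were DEGs, with 2 at an unadjusted p under 0.05: Bcas1 (-0.37, adjusted p = 0.0541) and Cacng4 (-0.17, adjusted p = 0.11 in edgeR).

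Of 15 astrocyte genes, the glutamate transporter Slc1a2 (-0.32, adjusted p = 0.0346) and the transcription factor Sox9 (-0.36, adjusted p = 0.033 in edgeR) were lower, and both were DEGs under vehicle. They made up 13.3% of the list, against 2.99% of all genes. Sox9 measured 24.9 to 28.0 CPM in CETPtg and 18.6 to 22.8 CPM in APPtg/CETPtg mice. Neither was called without mouse A, C, E or H or with the trend removed. None of the 23 reactive astrocyte genes was a DEG, with 4 at an unadjusted p under 0.05 in edgeR. Their smallest p belonged to Lcn2 and Cxcl10, at 1.29 and 2.29 on the log2 scale from at most 3.55 CPM.

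Vascular lists held no DEG among 19 endothelial, 15 mural and 17 fibroblast genes, with 3, 1 and 4 at an unadjusted p under 0.05 in edgeR. The endothelial median was 0.02. Egfl7, a secreted endothelial factor, had the smallest p of its list (27.1 to 30.5 against 30.5 to 39.4 CPM; 0.26, adjusted p = 0.0624 in edgeR). It was a DEG without mouse E (adjusted p = 0.0456) or B. The tight junction gene Cldn5 (0.41, adjusted p = 0.124) and Pecam1 (0.06, adjusted p = 0.791) did not pass. The extracellular matrix glycoprotein Vtn, made by pericytes, was at 0.32 (adjusted p = 0.0606 in edgeR).

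In lipid metabolism, both stearoyl-CoA desaturases tested in the list were lower. Scd1 measured 197, 185, 192 and 190.2 CPM in mice A to D and 140.1, 146, 167 and 165 CPM in mice E to H (log2 fold change -0.31, SE 0.07, adjusted p = 0.023 in edgeR). Scd2, the main form in brain, fell by 0.24 from 1312 ± 30.1 to 1113 ± 64.1 CPM (SD, n = 4 each; adjusted p = 0.0318 in edgeR). Both were DEGs under vehicle and with the GC and length trend removed, and neither was called without mouse E (adjusted p = 0.0598 and 0.0604), A, C or F. The other 24 genes of the lipoprotein and cholesterol efflux list did not pass, so that 7.69% of it was called, against 2.99% of all genes.

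Of 25 cholesterol synthesis genes, Mvk (0.28) and Pmvk (0.21), kinases of consecutive steps of the mevalonate pathway, were higher (adjusted p = 0.0257 and 0.0296 in edgeR). They made up 8.0% of the list, against 2.99% of all genes. Mvk measured 19.6 to 22.1 CPM in CETPtg and 23.3 to 26.4 CPM in APPtg/CETPtg mice. Srebf2, which encodes the pathway's transcription factor, did not pass (-0.01, adjusted p = 0.931 in edgeR). Both kinases were DEGs under vehicle (0.25 and 0.28, adjusted p = 0.0187 and 0.00277 in edgeR). In the evacetrapib contrast neither was called with the trend removed, or without any of mice A, C, D, F or H.

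Among 25 genes of APP processing, Apbb2, an adaptor that binds the tail of APP, was lower (46.8 to 56.7 against 41.1 to 45.8 CPM, log2 fold change -0.28, adjusted p = 0.0147 in edgeR). This was 4.0% of the list, against 2.99% of all genes. The call was lost without mouse A (adjusted p = 0.0627) and with the GC and length trend removed (adjusted p = 0.0501 in edgeR). The median of the list was -0.03. Of 24 genes of the unfolded protein response 0 were DEGs, with 4 at an unadjusted p under 0.05; Ddit3, the stress factor CHOP, lay at 0.20 and the chaperone gene Dnajb9 at -0.18 (adjusted p = 0.132 and 0.181 in edgeR).

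Neuronal lists held few DEGs. Of the immediate early, excitatory neuron and receptor lists, 4.17, 6.67 and 3.7% were called, against 2.99% of all genes. Npas4, an activity-induced transcription factor, was the DEG among 24 immediate early genes: it measured 23.8, 14.3, 19.2 and 19.7 CPM in mice A to D and 12, 6.33, 10.7 and 11.4 CPM in mice E to H (log2 fold change -0.94, SE 0.21, adjusted p = 0.0225 in edgeR). Under vehicle it was at 0.60. It was not called without mouse A (adjusted p = 0.0925), C or F. The difference between these effects had an unadjusted p of 3.64e-05, which did not pass over all genes (adjusted p = 0.263 in edgeR). Arl4d, Junb, Ccn1 and Egr4 had the other 4 of the 5 smallest p values of that difference; they lay at -0.22, -0.42, -0.54 and -0.28 under evacetrapib and at 0.70, 0.74, 0.95 and 0.70 under vehicle. Of the 24 immediate early genes, 10 were higher under vehicle and 0 lower.

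Nefm, a neurofilament subunit, was the DEG among 15 genes of excitatory neurons (-0.26, adjusted p = 0.0423), and Gabrg3 among 27 glutamate and GABA receptor genes (-0.30, adjusted p = 0.0346 in edgeR). Neither was called without mouse A, C, E, F or G, or with the GC and length trend removed (adjusted p = 0.0747 and 0.195 in edgeR). The receptor list lay below 0 in 20 of its 27 genes, with 9 at an unadjusted p under 0.05, and its summed level was 4835 to 5265 CPM in CETPtg and 4579 to 4690.4 CPM in APPtg/CETPtg mice, without overlap. The median log2 fold change of this list was -0.09, and -0.01 with the GC and length trend removed, where 0 were called. Of the 15 interneuron genes 0 were DEGs, with 2 at an unadjusted p under 0.05 in edgeR. Syt2, the synaptotagmin of fast-spiking synapses, fell by 0.60 (adjusted p = 0.00643 in edgeR), with mouse H at 60.7 CPM overlapping mouse D at 60.5 CPM; it was picked after its values were seen.

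Clock genes gave 2 lower DEGs in each of the lists by phase. Hlf, a PAR bZIP factor that clock proteins drive through E-boxes, measured 218, 177, 202 and 173 CPM in mice A to D and 152, 164, 139 and 143 CPM in mice E to H (log2 fold change -0.37, SE 0.07, adjusted p = 0.0141 in edgeR), and Bhlhe41 fell by 0.32 (adjusted p = 0.0455). Hlf was not called without mouse A (adjusted p = 0.0642), and Bhlhe41 was called in the fit without A and in none of the other 7. In the list of opposite phase, Rora fell by 0.33 and Rorb by 0.56 (adjusted p = 0.0171 and 0.0279 in edgeR). Neither was called with GC content and length corrected (adjusted p = 0.106 and 0.11), nor without mouse A, and Rorb was called in 3 of the 8 fits that left out a mouse. Rora and Rorb are also markers of thalamus and cortical layer 4. Median values were -0.19 over 13 genes and -0.05 over 6 genes, of which 15.4 and 33.3% were called, against 2.99% of all genes.

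Regional markers were read to compare the dissected pieces. Of 13 thalamic genes Rora was a DEG and of 16 cortical genes Foxp2 and Rorb. None of the 14 hippocampal, 14 hypothalamic or 13 olfactory bulb genes was, with 3, 4 and 1 at an unadjusted p under 0.05 in edgeR. The olfactory bulb list had a median of 0.65, with 11 of 13 above 0, and -0.79 under vehicle; its summed level was 540.3 to 571 CPM in mice D, E and G and 295 to 388 CPM in the other 5, and the median was 0.25 without mice B and E. Choroid plexus genes lay below 0 in 18 of 19 (median -0.61) with 0 DEGs and 2 at an unadjusted p under 0.05. Without mouse B the median was -0.23, with 14 of 18 below 0. The list's median under vehicle was 0.41, where its summed level was uneven too. It was 908 CPM in APPtg/CETPtg mouse S8, 545 CPM in CETPtg mouse S3, 438 CPM in APPtg/CETPtg mouse S7 and 239.8 to 318 CPM in the other vehicle mice. Among the 8 evacetrapib-treated mice, Ttr, the transthyretin gene that defines this tissue, was at 99.7 CPM in mouse B, 22.6 CPM in C and 1.5 to 10.6 CPM in the other 6. Calml4 and Prlr had the smallest p of that list (-1.36 and -1.32, adjusted p = 0.255 and 0.216 in edgeR). Blood genes, also with 0 DEGs and with 3 at an unadjusted p under 0.05, were highest in mouse A, where the red cell anion exchanger Slc4a1 reached 2.76 CPM against 0.0406 to 0.266 CPM in the other 7.

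Of the 18 pituitary genes, 4 had the counts to be tested, and Pomc, the precursor of ACTH and MSH, was a DEG at 4.98 on the log2 scale (adjusted p = 0.031 in edgeR). Its level was 148 CPM in mouse E and 0.971 to 1.9 CPM in the other 7. Without mouse E it did not pass (adjusted p = 0.699). Capn11, which is not on the pituitary list, was high in 2 mice, with 4.53 CPM in E, 3.2 CPM in H and at most 0.319 CPM in the others. Mouse H held 45 counts of Gh, Prl and Pomc together. Crhr1 (0.30) and Chgb (0.05), which the brain also expresses, and Neurod4 (0.25) did not pass. Among genes too low to test, Prl had 13648 counts, Gh 4495 and Cga 503 in mouse E, and at most 14 in any of the other 7. Without mouse E, 302 of the 556 DEGs were kept, and without mice B and E together 627 DEGs were called.

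Among the largest falls, Xlr3b, an X-linked member of a cluster of near-identical genes, fell by 2.12 (2.82 to 5.71 against 0.553 to 1.81 CPM; SE 0.47, adjusted p = 0.0222 in edgeR), a call lost without mouse A (adjusted p = 0.0832), C, E, F or G. It was at 0.70 under vehicle, and the difference did not pass (adjusted p = 0.703 in edgeR). Its count is uncertain where reads fit several copies. The others were Gm7293 (-1.93), Wnt8b (-1.58), Gm44562 (-1.36), H2-Ob (-1.29), Gm13577 (-1.23), Cfap47 (-1.13), mt-Atp8, Foxp2 and Bc1. Wnt8b, H2-Ob, Gm13577 and Gm7293 measured at most 1.26 CPM in each mouse. Wnt8b, H2-Ob and Cfap47 were called in 3 and Gm13577 in 1 of the 8 fits that left out a mouse, and none of the 4 was called without mouse E or with GC content and length corrected.

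By chromosome, 10 of the 21 mitochondrial genes tested, tRNA and rRNA genes included, were DEGs (47.6%), against 2.18 to 3.95% of the genes on each autosome and 3.09% on X. App's own chromosome 16 had the highest autosomal share, with 5 higher and 17 lower of 557.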

How the data were processed

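The deposited file held raw read counts per gene for 16 brains, 4 in each combination of genotype and treatment; per the submitters' notes, the authors trimmed reads with Trimmomatic 0.39, aligned them to mm10 with STAR 2.7.8a, and counted with HTSeq. The annotation and strand setting of the counting are not given in the sources used here. Gene names, lengths and sequences came from GENCODE M21. Gene lists, and the mice compared, were chosen with earlier results of these data known.

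Genes that reached 10 counts in 4 or more mice (18609 of 55487) were normalised by TMM and fitted with edgeR 4.0.16 (quasi-likelihood, R 4.3.3) to the means of the 4 groups of all 16 mice. P-values were adjusted by Benjamini-Hochberg over all genes tested. Exonic length and GC content came from the same annotation. Called pseudogenes were aligned to protein-coding transcripts with blastn 2.17.0. The scripts were tested on simulated data. Precision depends on the spread between the 4 mice of each group as well as on depth (21391335 to 46800787 counts per mouse).

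Genes named are Thy1, App, the pituitary genes, the 10 DEGs with the largest rise and fall without overlap, the 10 with the smallest p, list members called (or the 2 with the smallest p), and the 5 with the smallest p for the difference between treatments. Others were chosen after their values were seen. Alternatives were DESeq2 1.42.0, limma-voom 3.58.1, other filters and scalings, equal depth, a correction for GC content and length, plate row as a block, and each mouse left out. Plate rows shared by 2 mice did not pair them, since their correlations were -0.12 to 0.0417. Results on some genes that the rule names are not reported here.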

Additional observations from a re-analysis of the deposited data

Results flagged for a closer look

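In 138 groups of 4 mice examined, 10 held a mouse far from the other 3, where chance gives about 1 in 20. In CETPtg mice, D stood apart for Arl4d (21 CPM; 23.8 to 24.1 in the others), for the olfactory bulb list (540.3 summed CPM; 313 to 346) and for the thalamus list (288 summed CPM; 229.7 to 238). C stood apart for Rpl10-ps3 (0.133 CPM; 0.0568 to 0.0662), B for the interferon list (349 summed CPM; 234 to 248) and A for the glutamate and GABA receptor list (5265 summed CPM; 4835 to 4883). In APPtg/CETPtg mice, E stood apart for Pomc (148 CPM; 1.52 to 1.9) and Crhr1 (34.1 CPM; 27.6 to 28.6), G for homeostatic microglia (597 summed CPM; 542 to 546) and F for excitatory neurons (16304 summed CPM; 13755 to 13903).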

How the results depend on the processing

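The count of 556 DEGs between genotypes under evacetrapib moved by more than 1.5 times under 5 settings: 1135 with the DESeq2 Wald test, 351 with only the 8 mice of the treatment, 246 in those 8 mice with plate row as a replicate block, 182 with GC content and length corrected, and 1260 at an adjusted p of at most 0.1. With each mouse left out it ranged from 91 to 858. Mice that share a plate row did not deviate together, so the block pairs no samples. The 1934 DEGs under vehicle became 498 with GC content and length corrected and 3007 at an adjusted p of at most 0.1, and ranged from 909 to 1666 with a mouse left out. The difference between the genotype effects gave 2 DEGs with DESeq2 and 29 with no filter on low counts, and 0 to 1 with a mouse left out. Thy1 passed with no filter on low counts (0.63, adjusted p = 0.00732 in edgeR). Signs reversed for App, not called in any setting: 0.06 with GC content and length corrected and 0.04 without mice B and E, with a range of -0.09 to 0.0 with a mouse left out. They also reversed for Chgb (-0.01 with GC content and length corrected) and Neurod4 (-0.13 without mice B and E). The cause of these moves was not tested. Of 680 alternative values for 34 named genes, 592 kept direction and call, 80 lost the call, 3 gained it and 5 reversed. Under evacetrapib, depth and plate column cannot be told apart from genotype; the GC trend did not follow it in mice B and E.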
